A study of Homo sapiens with 6 samples.

Results

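The genes described here are the protein-coding genes of the WNT, BMP, TGF-beta, Notch and Hedgehog families in a comparison of T24-R with T24 cells. T24, a long-established line of human bladder carcinoma cells, served as the drug-sensitive parent. T24-R, which the sample labels call T24DDP, is its resistant strain, which the study selected over repeated rounds of cisplatin and gemcitabine at stepwise higher doses, with drug-free pauses. T24-R is a single derived strain, and the resistant strain that the study made from another bladder cancer line is not analysed here, so a difference between T24-R and T24 is described for this strain alone. RNA of both was sequenced in bulk, with 3 libraries of T24 (n = 3) and 3 of T24-R (n = 3). In bulk RNA, fewer cells that express a gene and less RNA per cell cannot be told apart. The study states for its experiments in general that n counts independent biological replicates, but the sample labels do not say from which culture each library came. Where libraries shared a culture, the p-values measure only the spread between these libraries, which may be technical.

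The deposited table lists 2462 genes, of which 1924 are protein-coding. All of them pass the fold change and adjusted p thresholds that the authors set for T24-R against T24. Every gene of the table had therefore already been selected on this contrast, and that a listed gene differed is not a result. A gene that is absent from the table is given here as not listed, which says nothing about its level. The members were taken by the first letters of the gene name, from 26 such name starts (WNT, FZD, DKK, SFRP, RSPO, LRP, AXIN, LEF, TCF7, TLE, GPC, BMP, TGFB, LTBP, INHB, GDF, SMAD, CHRD, GREM, NOTCH, JAG, DLL, HES, HEY, GLI and PTCH). They numbered 35 of the 2462 genes. GENCODE version 44 holds 176 protein-coding genes with these letters. No gene starting with FZD (10 in GENCODE), SFRP (4), RSPO (4), LEF (3), SMAD (8), GREM (2) or HEY (3) was listed, so the table held no Frizzled receptor and no SMAD transducer. For the description, 29 of the 35 were grouped by role as ligands, receptors, antagonists, transducers or nuclear factors, and 6 (BMP1, TGFBI, GLIPR1, GLIPR1L1, GLIS1 and PTCHD4) were placed in none of these groups and are described last.

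WNT proteins are secreted lipid-modified ligands that bind Frizzled receptors with LRP5 or LRP6 and stabilise beta-catenin, which acts with TCF and LEF factors on target genes such as AXIN2. Some WNT proteins signal through the receptor ROR2 without beta-catenin. BMPs, activins and TGF-betas are secreted dimers that bind receptor kinases and act through SMAD proteins, and extracellular antagonists such as chordin-like proteins and noggin capture BMPs before they reach a receptor. Notch ligands of the Jagged and Delta families sit on the neighbouring cell, and Hedgehog signals end in the GLI transcription factors. In the developing and adult bladder these pathways take part in the exchange between urothelium and stroma.

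The values are scaled counts, that is, reads counted on a gene and divided by 1 size factor per library. The size factors lay between 0.939 and 1.08, and the listed genes held 1170731 to 1411926 reads in each library, while the total depth is unknown. T24-R replicate 3 stood apart from the other T24-R libraries. The median chi-square per gene was 2.82 and 2.92 between it and T24-R replicates 1 and 2, against 0.732 between those and 0.852 to 1.29 between T24 libraries. Of the 18 urothelial and epithelial marker genes looked for, 3 were listed. KRT19 was lower in T24-R (T24 174, T24-R 0.326), PPARG was lower (1282 and 397) and GATA3 was higher (1.73 and 42.3). Of 8 fibroblast markers only COL1A1 was listed (T24 33.5, T24-R 188), and of 9 endothelial and blood cell markers only PECAM1 (1.74 and 27.6). The part that these shifts have in the results below was not tested.

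Sequences upstream of the start are shown for 5 of the members, as a description only. They were taken from RefSeq on GRCh38.p14, 250 bases each, and read 5′ to 3′ on the strand of the gene. GPC4 and CHRDL1, both on chromosome X, had reads in a single strain each, in opposite strains. INHBA and INHBB encode the activin beta subunits and were both higher in T24-R. In these 4 sequences, capitals mark CG dinucleotides. The GPC4 window is chrX:133415490-133415739 on the minus strand, and the CHRDL1 window is chrX:110795818-110796067 on the minus strand, its last 2 bases in the first exon of the gene. The INHBA window is chr7:41703091-41703340 on the minus strand, inside the gene span given by the table and outside all exons of GENCODE. The INHBB window is chr2:120345886-120346135 on the plus strand.
GPC4: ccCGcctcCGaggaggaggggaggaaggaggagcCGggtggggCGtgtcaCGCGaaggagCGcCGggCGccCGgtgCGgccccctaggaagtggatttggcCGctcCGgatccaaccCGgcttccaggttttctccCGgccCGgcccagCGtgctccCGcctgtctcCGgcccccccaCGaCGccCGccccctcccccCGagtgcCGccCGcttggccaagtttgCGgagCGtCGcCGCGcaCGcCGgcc
CHRDL1: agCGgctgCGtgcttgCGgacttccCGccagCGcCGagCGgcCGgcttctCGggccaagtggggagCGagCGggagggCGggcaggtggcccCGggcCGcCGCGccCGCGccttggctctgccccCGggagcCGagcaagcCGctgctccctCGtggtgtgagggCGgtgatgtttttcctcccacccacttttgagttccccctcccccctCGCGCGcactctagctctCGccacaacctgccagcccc
INHBA: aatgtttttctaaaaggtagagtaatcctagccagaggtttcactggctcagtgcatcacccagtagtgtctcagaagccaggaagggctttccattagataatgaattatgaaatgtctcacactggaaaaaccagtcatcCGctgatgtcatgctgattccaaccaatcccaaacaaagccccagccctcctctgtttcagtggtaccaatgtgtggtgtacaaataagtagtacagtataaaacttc
INHBB: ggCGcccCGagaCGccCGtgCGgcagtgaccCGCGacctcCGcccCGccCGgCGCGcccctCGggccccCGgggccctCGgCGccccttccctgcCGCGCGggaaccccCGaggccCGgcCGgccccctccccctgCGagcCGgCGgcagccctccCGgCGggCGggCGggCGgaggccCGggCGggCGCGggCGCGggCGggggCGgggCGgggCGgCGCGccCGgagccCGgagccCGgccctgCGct
The GPC4 sequence held 32 CG dinucleotides and was 76.0% G and C, and the CHRDL1 sequence held 27 and was 73.2% G and C. INHBA and INHBB lay far apart, with 1 CG and 42.8% G and C upstream of INHBA and 46 CG and 89.6% upstream of INHBB.

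DKK1, a secreted WNT antagonist and a member with many reads in both strains, is shown because its upstream window held 2 copies of CTTTGAN, the core letters of TCF and LEF binding, 1 on each strand. The window is chr10:52314031-52314280 on the plus strand, wholly within exons of the lncRNA gene PRKG1-AS1 on the opposite strand, and capitals mark the matches.
DKK1: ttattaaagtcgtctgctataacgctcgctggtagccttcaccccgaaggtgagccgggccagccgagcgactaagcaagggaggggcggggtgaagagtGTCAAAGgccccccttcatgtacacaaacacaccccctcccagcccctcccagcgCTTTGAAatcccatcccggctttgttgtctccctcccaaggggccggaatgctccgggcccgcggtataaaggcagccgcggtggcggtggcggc
RefSeq windows of 300 bases (250 before and 50 after the start) were found for 28 of the 35 members, 40 windows in all, since some genes have several starts. CTTTGAN was in 5.00% of the member windows and in 12.8% of all 35116 windows. Both strands were searched. GTGGGAA, the core of RBPJ sites, was in 5.00% and 6.25%. CACGTG, the E-box bound by factors of the HES family among others, was in 10.0% and 7.26%. GGCGCC, a GC-rich SMAD site, was in 40.0% of the member windows and 19.2% of all windows, and GTCTAGAC (the SMAD box, 0.202% of all windows) and GACCACCC (the GLI core, 0.974%) were in none of the 40. The median G and C content was 69.7% in the member windows and 58.7% in all windows, with a median of 27.0 and 14.0 CG dinucleotides. These letters describe the windows, and a match is not a bound site.

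In T24-R, 29 of the 35 members were called higher and 6 lower, with limma on log2(scaled count + 1) at an adjusted p under 0.05 and a log2 fold change beyond 1. Among all listed genes 69.2% were called higher and 29.2% lower. Since all listed genes were selected on fold change and adjusted p, the direction was not set by that selection. The size was bounded from below by it, in the members and in all listed genes alike. The share of members called higher was 82.9%, against 68.2% of the 1889 other protein-coding genes of the table. The groups of 3 libraries did not overlap in any of the 35 members, nor in 99.1% of all listed genes, so this is a feature of the table. The median log2 fold change was 2.12 over the members and 1.41 over all listed genes. An exact permutation test of 3 libraries against 3 gave p = 0.1 (two-sided) for each member, the smallest it can give.

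By role, all 12 ligands were called higher in T24-R, as were all 6 nuclear factors and the transducer AXIN2. Of 6 receptors and co-receptors, 5 were called higher and LRP8 lower. Of the 4 secreted antagonists and latency proteins, DKK1, BMPER and CHRDL1 were called lower and LTBP3 higher. Whether the roles differed in direction was not tested. By pathway, 11 of 13 WNT members, 8 of 10 BMP and TGF-beta members, 4 of 4 Notch members and 2 of 2 Hedgehog members were called higher. The WNT count takes LRP3, LRP8 and LRP11 by the letters LRP, and these are not the LRP5 and LRP6 co-receptors of WNT. A rescaling with TMM factors, which takes most genes as equally expressed, moved the median of all listed genes by -1.32 on the log2 scale. A table of selected genes does not meet that assumption. With these factors all 12 ligands and all 6 nuclear factors still had positive values, with 8 and 3 of them called higher. Of the 6 receptors and co-receptors, 1 was called higher and 1 lower. LTBP3 was at 0.13 and was not called. DKK1, BMPER and CHRDL1 were called lower with these factors too. The shift was downward and so favoured lower calls, and this does not test them. LRP11 and BMP1 turned slightly negative. Over all listed genes, 585 were called higher and 721 lower with TMM factors, in place of 1703 and 718 in the main fit.

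**Figure D1:**
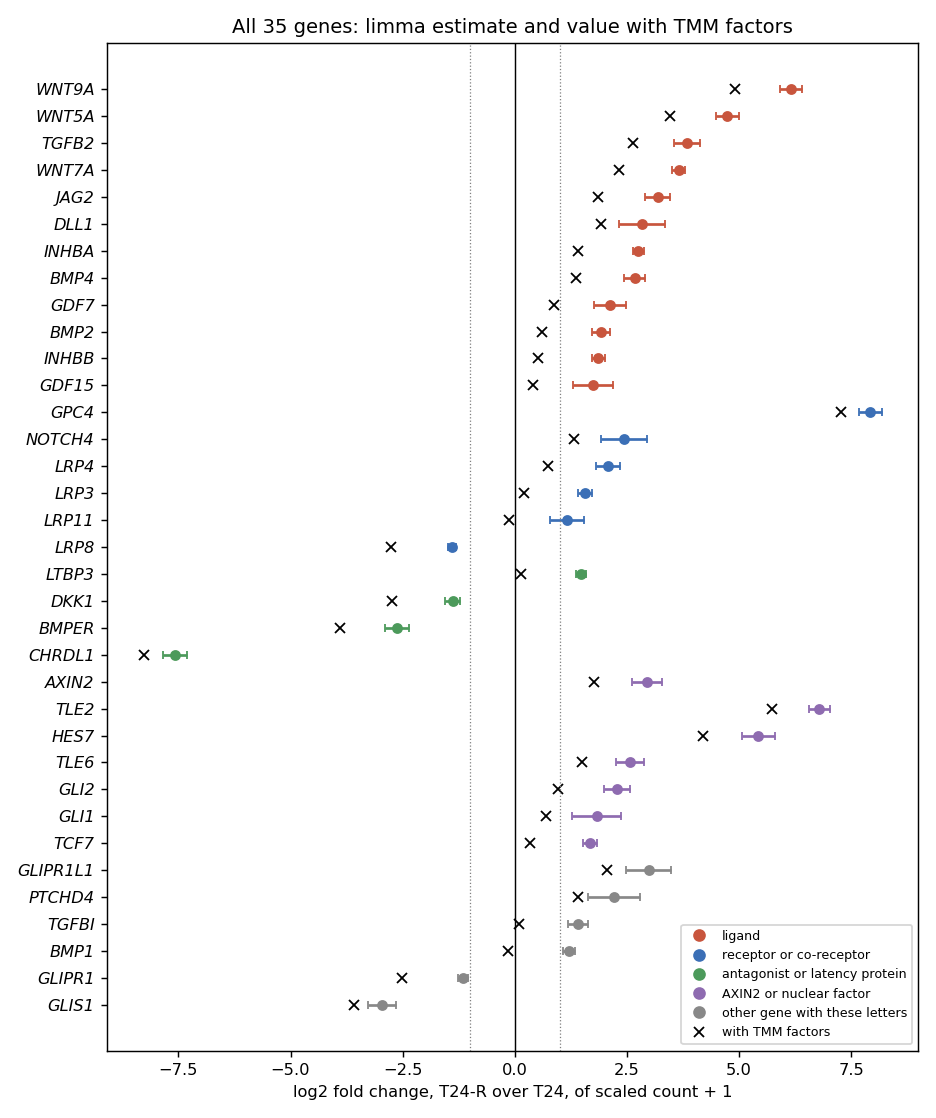
Log2 fold changes between T24-R and T24, positive where T24-R is higher (horizontal axis, on log2 of the scaled count + 1) for the 35 members, grouped by role. Circles are limma estimates with their standard error, crosses are the values with TMM factors, solid and dotted lines mark 0 and 1 in either direction. All 12 ligands lie to the right of 0 by both values, and CHRDL1, BMPER and DKK1 lie to the left.

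The table listed 3 WNT ligands, and all were higher in T24-R. WNT9A, which acts in joint and limb development, had scaled counts of 3.19, 5.11 and 5.81 in T24 against 435, 426 and 336 in T24-R. It was almost silent in T24, at 3 to 6 reads per library, and its mean was 84.8-fold higher in T24-R, with a log2 fold change of 6.15 (standard error 0.25, by limma with adjusted p = 3.32e-07). This was the largest change among the ligands and rank 29 of all listed genes by its absolute size. WNT5A, the ligand best known for signalling without beta-catenin, had 9.58, 11.2 and 5.81 in T24 against 259, 219 and 293 in T24-R. Its lowest T24-R library was far above its highest T24 library, and the means differed 29.0-fold (log2 fold change 4.74, standard error 0.26). The antisense gene WNT5A-AS1, which the choice of protein-coding genes leaves out, was also listed, at 0 to 2.04 in T24 against 12.9 to 21.0 in T24-R, and no annotated exon of it overlaps those of WNT5A. WNT7A, which takes part in limb and reproductive tract patterning, had 59.6, 44.9 and 59.0 in T24 against 701, 654 and 727 in T24-R. It was the WNT ligand with the most reads in both strains, and its log2 fold change was 3.66 (standard error 0.15), a 12.7-fold difference of means.

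Both BMP ligands of the table were of modest level. BMP2, a bone morphogenetic protein, had 23.4, 25.5 and 25.2 in T24 against 85.8, 91.4 and 117 in T24-R. BMP4, its close relative, had 14.9, 14.3 and 9.68 in T24 against 84.8, 94.2 and 81.3 in T24-R. The means in T24-R were 3.96-fold higher for BMP2 and 6.69-fold higher for BMP4. The log2 fold changes were 1.93 (standard error 0.20) and 2.67 (standard error 0.24). TGFB2, a TGF-beta isoform, had 4.26, 3.06 and 2.90 in T24 against 60.9, 49.0 and 78.3 in T24-R. Its log2 fold change was 3.84 (standard error 0.29), resting on 3 or 4 reads per T24 library, and 22.7% of its exonic bases overlap other genes on the same strand and 11.6% on the other in GENCODE, so its reads may be less certain. Overlaps here and below are those of GENCODE version 44, in which only 8 of the 35 members have the coordinates given by the table, and the annotation behind the counts may differ. For BMP4, 16.3% of exonic bases overlap an opposite-strand gene, and the sources do not say whether strand was used in counting.

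INHBA and INHBB encode the beta subunits of activins and, with the alpha subunit INHA, of inhibins. INHBA had scaled counts of 426, 514 and 453 in T24 against 2882, 3056 and 3453 in T24-R. It had the highest scaled count of the members in T24-R, with a mean of 3130 ± 293 (SD, n = 3) against 464 ± 45.1 (SD, n = 3) in T24, and rank 55 of all listed genes in T24-R. Its log2 fold change was 2.75 (standard error 0.12, by limma with adjusted p = 4.55e-07). INHBA-AS1, an antisense gene that overlaps 2.99% of its exonic bases, was higher too, at 3.19 to 6.77 in T24 against 23.1 to 53.9 in T24-R. INHBB had 216, 232 and 276 in T24 against 984, 937 and 732 in T24-R, a log2 fold change of 1.87 (standard error 0.15). INHA averaged only 2.39 in T24 against 13.0 in T24-R (log2 fold change 2.26, limma adjusted p = 0.00676). Both beta subunits had at least 203 reads per library in T24, whereas the alpha subunit had a few.

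The growth and differentiation factors GDF15 and GDF7 differed in their spread. GDF15, a stress-induced member of the TGF-beta superfamily, had 143, 106 and 110 in T24 against 670, 563 and 172 in T24-R. T24-R replicate 3 was at 0.280 of the mean of replicates 1 and 2, though still above all T24 libraries. The log2 fold change was 1.75 (standard error 0.45, by limma with adjusted p = 0.00432), the smallest among the ligands, and 2.36 without that library. GDF7, a BMP-type ligand, had 5.32 to 8.17 in T24 against 20.3 to 44.1 in T24-R, a log2 fold change of 2.12 (standard error 0.35).

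The Notch ligands JAG2 and DLL1 were both higher in T24-R. JAG2, a Jagged ligand, had 34.1, 32.7 and 17.4 in T24 against 276, 280 and 209 in T24-R, and its mean was 9.09-fold higher (log2 fold change 3.18, standard error 0.27). DLL1, a Delta ligand, had 3 reads or fewer in each T24 library and 10 to 19 in those of T24-R. With a floor of 3 reads per library, the T24-R level of DLL1 was at least 4.51-fold that of T24.

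**Figure D2:**
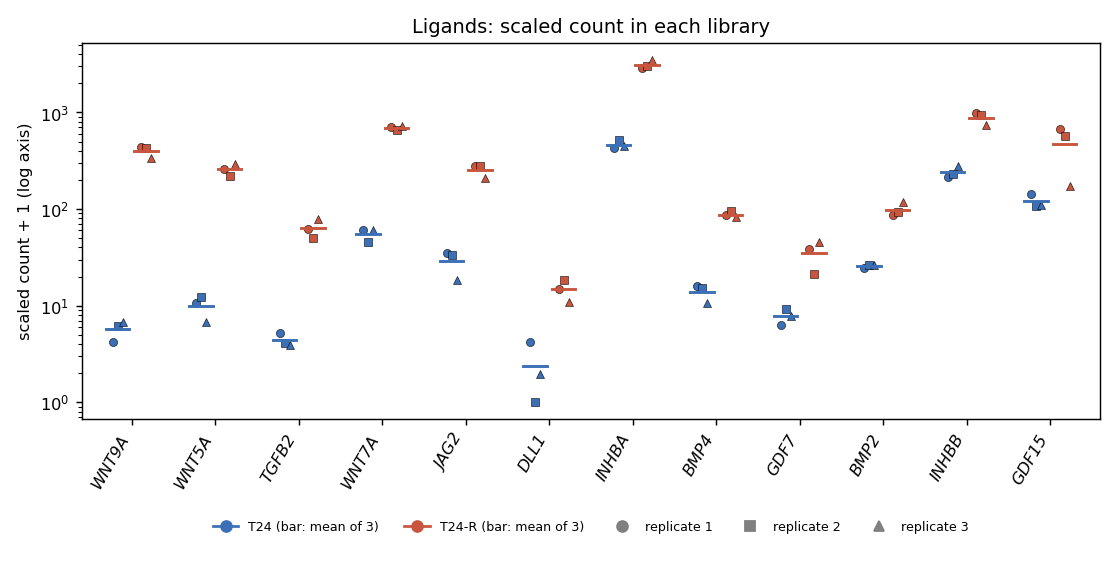
Scaled count + 1 (vertical log axis) of the 12 ligands in each library, with T24 in blue and T24-R in red, a marker shape per replicate and a bar at each mean of 3. The groups do not overlap in any ligand, nor in 99.1% of all listed genes. WNT9A has the widest gap, and T24-R replicate 3 of GDF15, at 172, lies apart from 670 and 563.

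Divided by the gene length given in the table, the order of the ligands changed between the strains. Which transcripts these cells use was not tested, and the order between genes depends on the length taken. In T24, INHBB stood highest at 75.3 scaled counts per kb, followed by GDF15 at 57.4 and INHBA at 55.9. The ranges of GDF15 (50.9 to 68.3 per kb) and INHBA (51.3 to 61.9 per kb) overlapped, and those of INHBB (67.4 to 86.1 per kb) and GDF15 did as well. In T24-R, INHBA stood highest at 377 per kb (347 to 416 over libraries), above INHBB at 276 per kb (229 to 307). GDF15 followed at 224 per kb with a range of 82.6 to 321, which overlapped that of INHBB and that of WNT7A, at 151 per kb (143 to 159). WNT9A moved from 1.18 per kb in T24 to 100 per kb in T24-R. JAG2 (39.9 per kb, 32.6 to 43.7) and WNT5A (34.8 per kb, 29.6 to 39.6) did not differ beyond their spread in T24-R, and BMP4 (28.2 per kb) and BMP2 (27.2 per kb) did not either.

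Among receptors and co-receptors, GPC4 changed most. GPC4, a glypican (a heparan sulfate proteoglycan of the cell surface that binds WNTs and other ligands), had no read in any T24 library and 243, 262 and 222 scaled counts in T24-R. Against the same floor its T24-R level was at least 79.5-fold that of T24, and it ranked 6 of all listed genes by absolute log2 fold change. With no read in T24, that value of GPC4 and its rank depend on the pseudocount. It was 7.93 with a pseudocount of 1, 11.2 with 0.1 and 4.66 with 10. NOTCH4, a Notch receptor, had 1 to 4 reads in each T24 library and scaled counts of 23.9, 25.9 and 8.81 in T24-R (log2 fold change 2.44, standard error 0.50). Its value in T24-R replicate 3 was well below the other T24-R libraries.

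The LRP genes did not move together. LRP4, an LDL receptor family member that binds agrin and modulates WNT signalling, had 46.8, 38.8 and 82.3 in T24 against 196, 243 and 247 in T24-R (log2 fold change 2.08, standard error 0.27). LRP3 had 193, 151 and 154 in T24 against 421, 471 and 592 in T24-R (log2 fold change 1.57, standard error 0.17). LRP8, the receptor for reelin and apolipoprotein E, went the other way, with 1814, 1942 and 1976 in T24 against 723, 750 and 696 in T24-R. Its mean was 2.64-fold higher in T24, with narrow groups and a log2 fold change of -1.40 (standard error 0.10, by limma with adjusted p = 4.20e-06). LRP11 had 9.58 to 24.5 in T24 against 26.9 to 46.2 in T24-R, a log2 fold change of 1.16 (standard error 0.37, by limma with adjusted p = 0.0137). The groups of LRP11 nearly touched, its call was lost without T24 replicate 1 (log2 fold change 0.82) or T24-R replicate 2 (1.01), and 44.5% of its exonic bases overlap other genes on the same strand.

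Among the antagonists and latency proteins, DKK1 and LTBP3 had the most reads in T24. DKK1, which blocks LRP5 and LRP6, had 3988, 3722 and 3709 in T24 against 1748, 1610 and 1103 in T24-R. It was the member with the highest scaled count in T24 and, per length, had 1726 scaled counts per kb in T24 against 674 in T24-R, still more than any ligand. The mean was 2.56-fold higher in T24 (log2 fold change -1.38, standard error 0.17, by limma with adjusted p = 7.39e-05). T24-R replicate 3 was the lowest T24-R library, and the log2 fold change was -1.18 without it. Tested by treat for a log2 fold change beyond 1, DKK1 was not called (treat adjusted p = 0.0502). For DKK1, 10.2% of exonic bases overlap PRKG1-AS1 on the other strand.

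CHRDL1, a chordin-like BMP antagonist, had 172, 184 and 216 in T24 and no read in any T24-R library. It was at least 65.7-fold lower in T24-R against the floor of 3 reads per library, the mirror of GPC4 on the same chromosome. BMPER, a secreted protein that binds BMPs and can act for or against them, had 75.6, 61.3 and 72.6 in T24 against 12.0, 12.0 and 7.83 in T24-R (log2 fold change -2.63, standard error 0.26). LTBP3, which holds latent TGF-beta in the matrix, was the exception of the group. It had 555, 577 and 566 in T24 against 1703, 1676 and 1388 in T24-R, with a mean 2.81-fold higher in T24-R (log2 fold change 1.48, standard error 0.11). With TMM factors its log2 fold change was 0.13 and was not called.

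**Figure D3:**
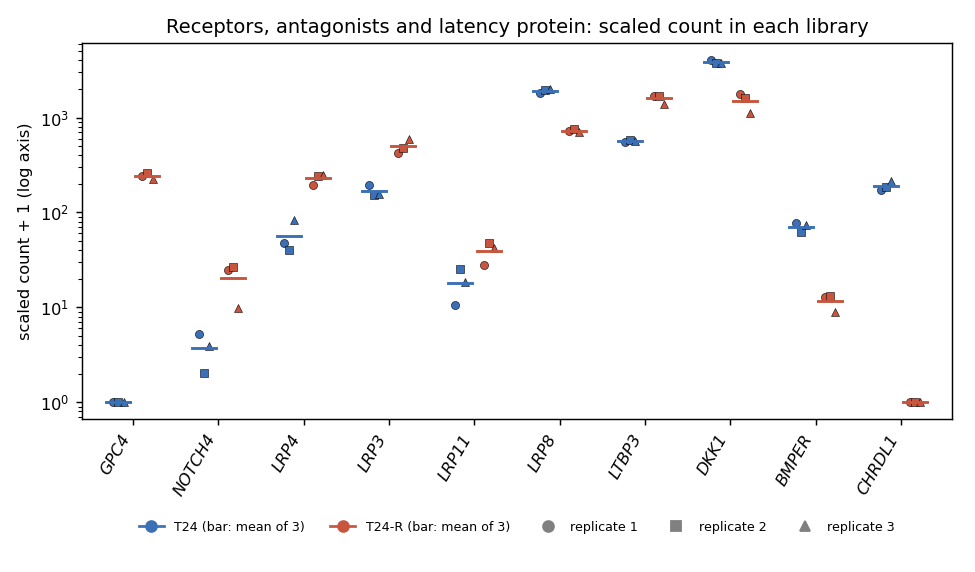
Scaled count + 1 (vertical log axis) of 6 receptors and co-receptors and 4 antagonists and latency proteins in each library, with T24 in blue and T24-R in red, a marker shape per replicate and a bar at each mean of 3. GPC4 is at 0 reads in all T24 libraries and CHRDL1 at 0 in all T24-R libraries, and LRP8, DKK1 and BMPER are lower in T24-R.

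Inside the cell, AXIN2, a scaffold of the beta-catenin destruction complex and a widely used readout of beta-catenin activity, had 2.13, 3.06 and 4.84 in T24 against 36.9, 25.9 and 32.3 in T24-R. Its mean was 9.48-fold higher in T24-R (log2 fold change 2.95, standard error 0.33, by limma with adjusted p = 4.54e-05), at 28 to 37 reads per T24-R library. Of its exonic bases, 25.3% overlap another gene on the same strand. TCF7, a nuclear partner of beta-catenin, had 104, 99.1 and 122 in T24 against 321, 323 and 405 in T24-R (log2 fold change 1.68, standard error 0.15). With TMM factors its value was 0.33 and was not called, whereas AXIN2 was at 1.76 and was called.

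TLE2 and TLE6, genes of the Groucho family of co-repressors, lie 2.45 kb apart on chromosome 19 and were both higher in T24-R. TLE2 had 1 read in each T24 library and scaled counts of 208, 230 and 232 in T24-R. Its T24-R level was at least 73.1-fold the floor in T24, and it ranked 13 of all listed genes by absolute log2 fold change. At 1 read per T24 library, this rank too depends on the pseudocount. TLE6 had 1 or 2 reads per T24 library and 15 or 16 per T24-R library, at least 4.85-fold higher.

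HES7, a transcriptional repressor of the Notch target family, had 6.39, 4.09 and 2.90 in T24 against 296, 289 and 136 in T24-R, and its log2 fold change was 5.43 (standard error 0.37) and 5.80 without T24-R replicate 3, the lowest of the T24-R libraries. GLI2, the main activator of Hedgehog target genes, had 26.6, 22.5 and 12.6 in T24 against 115, 96.1 and 88.1 in T24-R (log2 fold change 2.28, standard error 0.29). GLI1, a Hedgehog target and factor, had 1.02 to 6.39 in T24 against 9.24 to 24.9 in T24-R (log2 fold change 1.83, standard error 0.55, by limma with adjusted p = 0.00980). GLI2 lies 384 kb from INHBB on chromosome 2, and both were higher in T24-R. LRP8 and GLIS1, 178 kb apart on chromosome 1, were both lower. Since 69.2% of all listed genes were called higher, nothing is read from such pairs, TLE2 and TLE6 included.

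**Figure D4:**
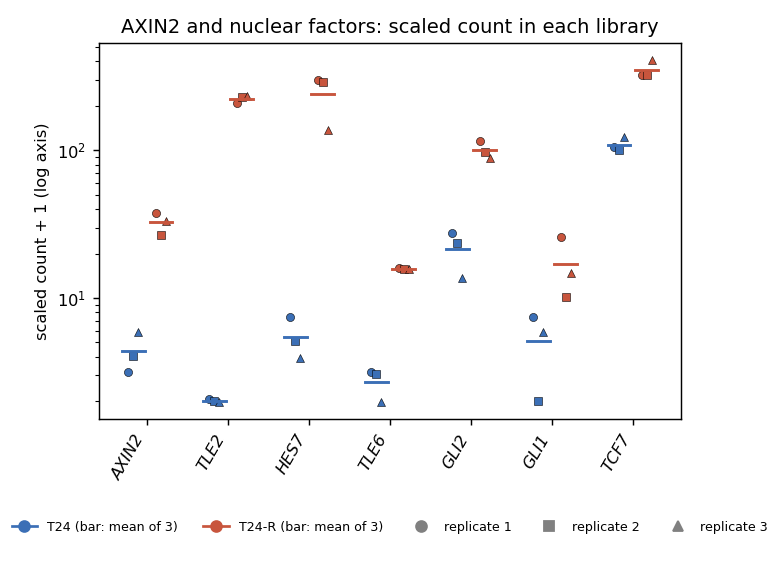
Scaled count + 1 (vertical log axis) of AXIN2 and the 6 nuclear factors in each library, with T24 in blue and T24-R in red, a marker shape per replicate and a bar at each mean of 3. TLE2 and HES7 have the widest gaps between the strains, and all 7 genes are higher in T24-R.

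The remaining 6 members carry the letters of the families and were placed in none of the groups above, although some touch these pathways. BMP1, a protease that matures procollagens and also cleaves the BMP antagonist chordin, had 207.6, 230.9 and 248.7 in T24 against 579, 521 and 490 in T24-R (log2 fold change 1.21, standard error 0.13), and its log2 fold change was -0.14 with TMM factors. TGFBI, a matrix protein induced by TGF-beta, had 20.2, 22.5 and 28.1 in T24 against 59.87, 60.04 and 73.44 in T24-R (log2 fold change 1.42, standard error 0.22). GLIPR1 had 1571, 1417 and 1671 in T24 against 691, 630 and 771 in T24-R, 2.23-fold higher in T24. Its paralog GLIPR1L1, 110 kb away on chromosome 12, moved in the opposite direction, from 3 reads or fewer in each T24 library to 12 to 20 in those of T24-R. Of the exonic bases of GLIPR1, 24.4% overlap KRR1 on the other strand. GLIS1, a zinc finger factor, had 5 to 10 reads per T24 library and none in T24-R, at least 2.43-fold lower. PTCHD4, a protein with a patched domain, had 0 or 1 read in T24 against 3, 5 and 18 in T24-R, so that T24-R replicate 3 carried most of its difference, with a log2 fold change of 2.22 and of 1.56 without that library.

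Other genes of the pathways were looked up from 4 lists of names. All lie outside the letters above except LEFTY1 and LEFTY2, which start with LEF and were not in the table. Of 45 WNT pathway genes, 9 were listed, with 8 called higher and 1 lower. These counts, and those of the 3 lists that follow, stand beside 69.2% of all listed genes called higher and 29.2% called lower, and with so few genes in a list nothing particular to a pathway is read from them. ROR2, the receptor kinase that binds WNT5A, had the largest difference, at 4.26, 6.13 and 4.84 in T24 against 243, 240 and 265 in T24-R (log2 fold change 5.38, standard error 0.22, by limma with adjusted p = 3.32e-07). ROR2 was near the floor in T24. KREMEN2, a receptor for DKK proteins, was higher (54.9 ± 3.09 in T24 against 169 ± 37.9 in T24-R, SD, n = 3), as was PRICKLE1, a planar cell polarity protein (48.2 ± 10.8 and 137 ± 18.9). With TMM factors the log2 fold changes were 0.24 for KREMEN2 and 0.17 for PRICKLE1. APC2, a relative of APC, was higher with a log2 fold change of 1.33, and at -0.01 with TMM factors. TNIK, a kinase that acts with TCF factors, was lower (log2 fold change -1.29, standard error 0.27). NOTUM, a secreted enzyme that inactivates WNT ligands, was higher in T24-R (6.85 ± 3.40 and 44.1 ± 18.8, log2 fold change 2.51), opposite in direction to the antagonist DKK1. The others, LGR5, PRICKLE2 and DAAM2, were called higher at means under 50 in both strains.

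Of 45 further BMP and TGF-beta genes, 6 were listed, with 4 called higher and 2 lower. NOG, which encodes the BMP antagonist noggin, had 880, 897 and 851 in T24 against 2233, 2062 and 1344 in T24-R. In contrast to CHRDL1 and BMPER, this antagonist was higher in T24-R (log2 fold change 1.07, standard error 0.18), close to the threshold, and it was at -0.29 with TMM factors. ID3, a common target of BMP signalling, was lower, at 328, 314 and 295 in T24 against 108, 93.3 and 42.1 in T24-R (log2 fold change -2.04, standard error 0.31, by limma with adjusted p = 2.61e-04). BAMBI, a decoy receptor that is itself a target of these pathways, was higher (24.2 ± 4.25 and 105 ± 7.01). NRROS, which holds latent TGF-beta1, was lower (92.1 ± 1.56 and 8.36 ± 1.31), opposite to LTBP3. TMEFF1 had a log2 fold change of 1.14, and of -0.17 with TMM factors. The BMP ligands and BAMBI were higher while ID3 was lower, and the antagonists differed in direction among themselves.

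All 6 listed genes of 37 in the Notch list were called higher. DTX4, a ubiquitin ligase of the Deltex family, was highest in fold, at 86.2, 53.1 and 70.7 in T24 against 517, 478 and 729 in T24-R (log2 fold change 3.02, standard error 0.22). NRARP, a Notch target that limits the pathway, was higher (27.7 ± 5.22 and 80.8 ± 21.0), and so were the coactivators MAML2 (71.1 ± 13.3 and 233 ± 67.1) and MAML3 (19.8 ± 7.36 and 65.1 ± 2.80). With TMM factors the log2 fold changes were 0.17 for NRARP, 0.34 for MAML2 and 0.43 for MAML3. MFAP2, a microfibril protein that can bind Jagged ligands, was at 27.8 ± 9.41 and 187 ± 75.6. MIB2, a ligase for Notch ligands, had a log2 fold change of 1.13, and of -0.22 with TMM factors.

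Of 19 Hedgehog genes, 7 were listed, with 6 called higher and EVC2 lower. The co-receptors CDON (7.04 ± 2.32 and 123 ± 22.6) and GAS1 (7.05 ± 5.45 and 60.7 ± 5.95) were higher, as was DISP2, a relative of the ligand-release protein DISP1 (39.3 ± 8.39 and 229 ± 20.7). EVC2, a ciliary protein of the pathway, had 63.9, 60.3 and 67.7 in T24 against 3.99, 2.77 and 4.90 in T24-R, a log2 fold change of -3.76 (standard error 0.28). The ligands SHH (0.710 and 8.47 on average) and DHH (0.355 and 5.52) were called higher on few reads, and so was BOC, a co-receptor, at means of 11.3 and 32.0.

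**Figure D5:**
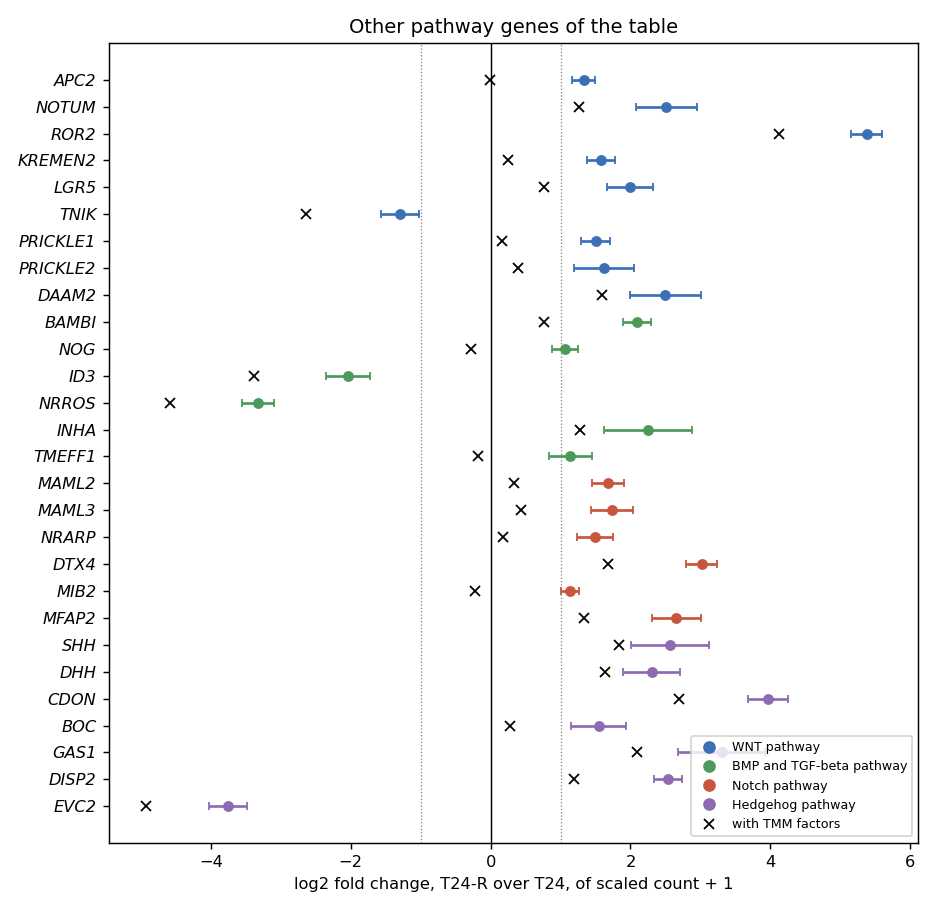
Log2 fold changes between T24-R and T24, positive where T24-R is higher (horizontal axis, on log2 of the scaled count + 1) for the 28 other pathway genes in the table, coloured by pathway. Circles are limma estimates with their standard error and crosses the values with TMM factors. ROR2 and CDON lie farthest to the right and EVC2, NRROS, ID3 and TNIK to the left, and APC2, NOG, TMEFF1 and MIB2 fall below 0 with TMM factors.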

How the data were processed

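RNA of T24 and T24-R cells (3 libraries each, grouped by the sample titles) was sequenced by the authors. The labels name retinas and a mouse build, whereas the cell line and the gene identifiers are human, and the paper's methods were followed. The authors ran read quality control with fastp, aligned the reads to GRCh38 with HISAT2, counted with featureCounts and tested with DESeq2. The annotation version and the use of strand are not given in the sources used here. The deposited signal values are read counts that the authors had scaled by a size factor for each library. The table also holds the authors' group means, fold changes and p-values, which were not used, and gene lengths, which were. Divided by its smallest step, 100% of each library came out whole (tolerance 0.001 reads), which gave back the reads. The members and gene lists were chosen with earlier results of these data known.

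With R 4.3.3, limma 3.58.1 was fitted to log2(value + 1) for all 2462 genes with a variance trend, no block and Benjamini-Hochberg adjustment. The plan had named this fit and the alternatives: TMM factors, no trend, a mean of at least 10, pseudocounts of 0.1 and 10, the replicate block, treat, each library left out, and count tests on those reads, edgeR 4.0.16 and DESeq2 1.42.0. Every member is named, with values by library for means of at least 50 in a strain. Libraries at 3 reads or fewer were taken as at the floor, and floors cover counting error only. Coordinates and exon overlap came from the table and GENCODE version 44 (35 of 35 members found). Only 8 of the 35 have the same coordinates in both, so the overlap percentages describe GENCODE and not the annotation behind the counts. The script was run on simulated data in which 200 genes were changed and the others were not. This differs from a table of selected genes, so that run does not test the calls made here. Python 3.11.15 with pandas 2.3.3 and matplotlib 3.10.9 was used.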

Additional observations from a re-analysis of the deposited data

How the results depend on the processing

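With TMM factors 14 members were called higher in place of 29, and over all listed genes 585 were called higher and 721 lower, in place of 1703 and 718. LRP11 (-0.14) and BMP1 (-0.14) changed sign with these factors, 13 further members kept their direction but lost the call and 20 kept both. The 13 were GDF7, BMP2, INHBB, GDF15, NOTCH4, LRP4, LRP3, LTBP3, GLI2, GLI1, TCF7, PTCHD4 and TGFBI. TMM assumes that most genes are equal, which a table of selected genes does not meet. Its shift was downward, so the members called lower were not put to a test by it. Under treat, which tests for a log2 fold change beyond 1, the calls over all listed genes fell to 1034 higher and 264 lower, and 8 members lost the call. The 8 were DKK1, GDF15, LRP11, GLI1, PTCHD4, TGFBI, BMP1 and GLIPR1. Leaving out each library in turn gave 28 to 29 members higher and 6 lower, and 1628 to 1667 genes higher and 571 to 699 lower among all listed genes, with the lowest values without T24-R replicate 3. With a pseudocount of 10, 4 members lost the call. Without the variance trend, with a pseudocount of 0.1 and with edgeR or DESeq2 on the recovered reads, all 35 members kept direction and call, as did the 30 members with a mean of at least 10. Over all listed genes edgeR called 1740 higher and 720 lower, and DESeq2 1740 and 721. The authors had selected the table from these counts with DESeq2 at the same thresholds. The outcome of the count tests was therefore largely set in advance and is no check on the members. Members at a few reads in a strain, such as GLI1, NOTCH4, PTCHD4 and GLIS1, are limited by depth.

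The replicate numbers were also fitted as a block. This gave 29 members higher and 6 lower, and 1704 and 719 over all listed genes. Deviations of same-numbered libraries correlated at 0.26, 0.04 and 0.31 over 1287 genes, and 4 of 6 libraries correlated best with their own number. These values do not settle whether same-numbered libraries are pairs, and the main fit was planned without a block.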
